A study of Mus musculus with 8 samples.

Results

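The genes described here are the Hox genes of the 4 mouse clusters HoxA, HoxB, HoxC and HoxD. They were taken as every row of the deposited expression table whose symbol is Hox followed by a cluster letter from a to d and a number, which gave 38 of the 22200 genes in the table. HoxA contributed 11 members, HoxB 10, HoxC 8 and HoxD 9. The annotation of the mouse assembly mm9 (NCBIM37) names 39 such symbols, and the remaining one, Hoxc8, was not analysed here.

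Expression was measured in immortalized mouse embryonic fibroblasts (MEFs) on the C57BL/6 background to follow the response to retinoic acid (RA). All 8 libraries carry the genotype label TAF4-/-, TAF4 belonging to the general transcription factor complex TFIID, and by that label the controls lack the gene too. They form 3 groups: untreated cells taken at 12 h (n = 3), and cells given RA for 12 h (n = 3) or for 72 h (n = 2). For the longer treatment the study's methods state a shorter time than its results and the labels, and the labels were followed. By the methods of the study such TAF4-null cells were a single MEF line obtained by Cre recombination of a floxed allele, and nothing in the labels says whether replicates were separate cultures. The p-values below therefore measure only the spread between these samples, which may be technical. Untreated cells were not sampled at 72 h, so RA and time in culture changed together in both comparisons with the 72 h group.

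Hox genes encode homeodomain transcription factors that give cells their position along the head to tail axis and along the limbs. Within a cluster the genes lie in the order of their paralogue numbers, low numbers at the 3′ end and high numbers at the 5′ end, and in the embryo 3′ genes are activated earlier and further forward than 5′ genes. Retinoic acid is a classical activator of the 3′ genes: its nuclear receptors bind response elements made of direct repeats, several of which lie within or beside the clusters. Cultured fibroblasts are known to keep a Hox pattern of the body region they came from.

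The values are the authors' normalised reads per gene, on a scale with a floor of 1 that 2883 genes took in each library. The sorted values were the same in all 8 columns, so the depth of each library is lost, and no counting error or detection limit can be given. The libraries fell on opposite sides of one axis that held 50.1% of the variance within groups, which put on one side the untreated replicates 1 and 2, the third 12 h library with RA, and the second 72 h library. Each group was first centred on its own mean, so every group had libraries on both sides by construction. The labels name no batch for this axis, and its part in the results was examined by adding the side to the fit. Because the side was derived from the spread of these same values, such fits have less residual spread by construction. Their p-values may therefore be too small. Taf4a, the targeted gene, stood between 983.75 and 1449.25 normalised reads in these libraries labelled TAF4-/-; which part of the gene the reads came from is not given, so this level does not check the deletion, and the library titles carry cl1, which resembles the study's name for its TAF4-expressing line. Fibroblast markers summed to between 240319 and 283066 normalised reads per library (12 of 15 markers reached the level needed for testing). Epithelial markers summed to at most 46.4 (1 of 10 tested), endothelial markers to at most 163 (5 of 10) and haematopoietic markers to at most 119.5 (2 of 10), while neural markers summed to between 1848 and 2192 (2 of 10), nearly all of it from Syt1. The fibroblast sum was lower at 72 h (240319 and 243065) than in any untreated library (at least 266570), and its part in the 72 h values of the Hox genes was not tested. In a bulk measurement, fewer cells that express a gene and less RNA per cell cannot be told apart.

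Most Hox genes were close to the floor, and a few were not. In 28 of the 38 members no library reached 10 normalised reads, and 24 members were at the floor in at least 1 library. Of all Hox values, 27.3% were at the floor, against a share of 12.99% among all genes. The median of the untreated means was 3.10 normalised reads over the Hox genes and 21.0 over all genes. The level required for testing, a mean no lower than 10 across libraries, was reached by 9 of 38 Hox genes (23.7%) and by 57.1% of all genes. They included Hoxa2, Hoxa3, Hoxa4, Hoxa5, Hoxa10, Hoxa11, Hoxa13 and Hoxd13, and 8 of the 9 came from HoxA, 1 from HoxD and none from HoxB or HoxC.

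**Figure D1:**
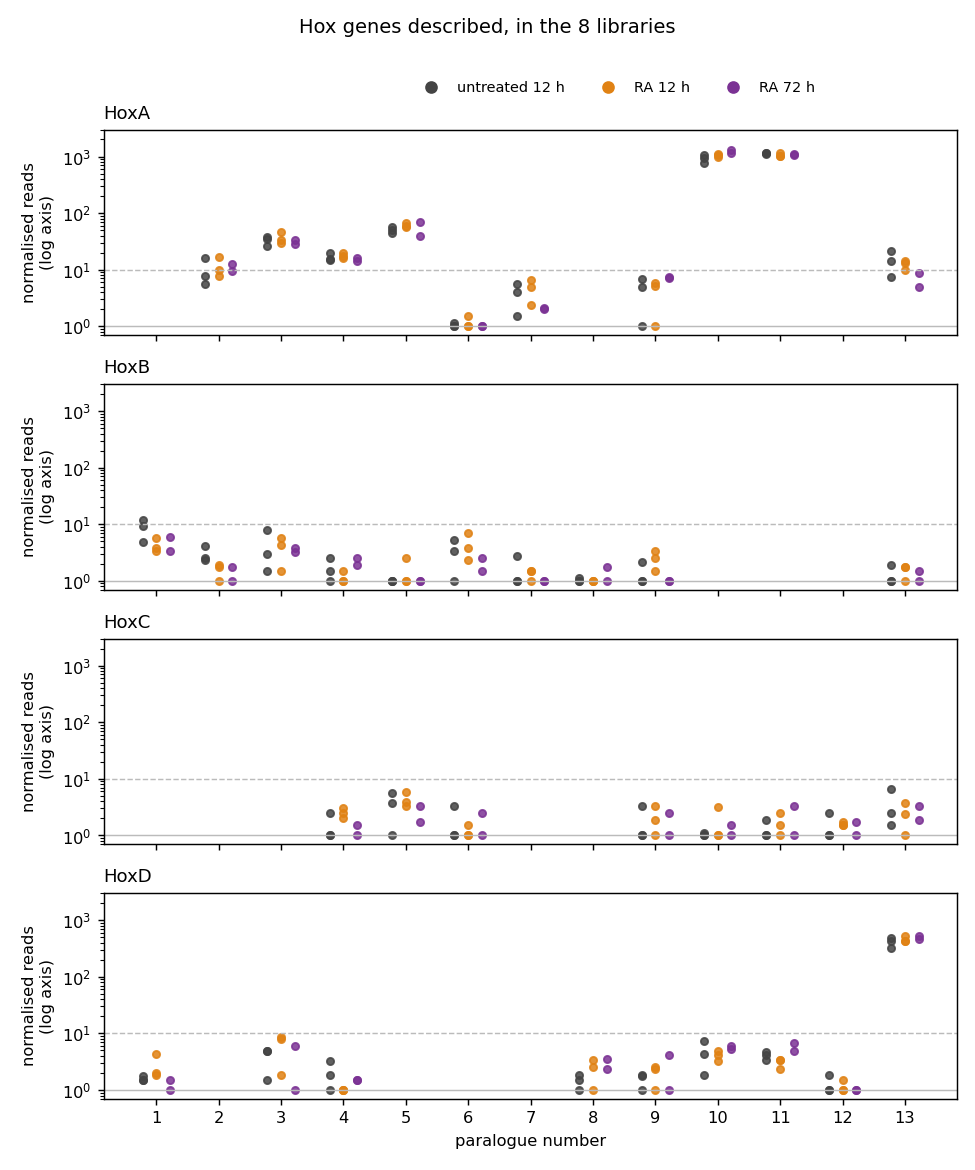
Normalised reads (log axis) of the Hox genes described here by paralogue number, 1 panel per cluster and 1 point per library, coloured by group. The solid line is the floor of 1 and the dashed line a level of 10, and only Hoxa10, Hoxa11 and Hoxd13 stand above 100 in every library.

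Where levels are not given per kb, values of different genes were set side by side undivided. To order the genes, levels were divided by the length of the longest annotated transcript, as normalised reads per kb. On that scale the order in untreated cells was Hoxa11, Hoxa10, Hoxd13 and then Hoxa5. The means were 416 ± 9.4 reads per kb for Hoxa11, 363 ± 58 for Hoxa10, 167 ± 35 for Hoxd13 and 27.0 ± 3.0 for Hoxa5 (SD, n = 3). Hoxd13 was below Hoxa11 and Hoxa10 and far above Hoxa5 in every library. Over the 8 libraries the ranges per kb of Hoxa11 and Hoxa10 overlapped, so this pair could not be ranked beyond its spread. Hoxa3 and Hoxa4 stood at 10.7 ± 2.0 and 10.5 ± 1.7 reads per kb, again indistinguishable, and Hoxa13 at 5.96 ± 2.88.

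The 3 leading genes are 5′ genes, with paralogue numbers 10, 11 and 13. Together they held between 88.8% and 92.6% of the summed Hox level per kb in each library. In untreated cells the HoxA cluster held 81.8% ± 1.17 of the sum, HoxD 16.3% ± 1.90, HoxB 1.12% ± 0.52 and HoxC 0.752% ± 0.325 (SD, n = 3). With RA for 12 h these shares were 80.6% ± 1.86 for HoxA and 17.7% ± 2.18 for HoxD (n = 3), and at 72 h they were 80.7% ± 0.62 and 17.9% ± 0.83 (n = 2). The untreated ranges overlapped those of both RA groups for HoxA and HoxD, so the shares of these clusters did not separate the groups. The summed share of the 3 leading genes did not overlap between groups, though untreated and 12 h libraries nearly met. It was 88.8% to 89.8% in untreated libraries, 89.9% to 90.3% at 12 h and 90.6% to 92.6% at 72 h. Within it, Hoxa10 held 31.4% to 36.1% of the Hox sum in untreated libraries and 38.5% and 41.5% at 72 h, while Hoxa11 held 36.6% to 44.0% and then 35.6% and 33.2%. No test was run on these shares, which are a description. The labels describe short tags beside a restriction site while the study's methods describe fragmented RNA, and a tag count would not grow with length. Without division by length the untreated shares were 82.5% for HoxA and 15.9% for HoxD.

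**Figure D2:**
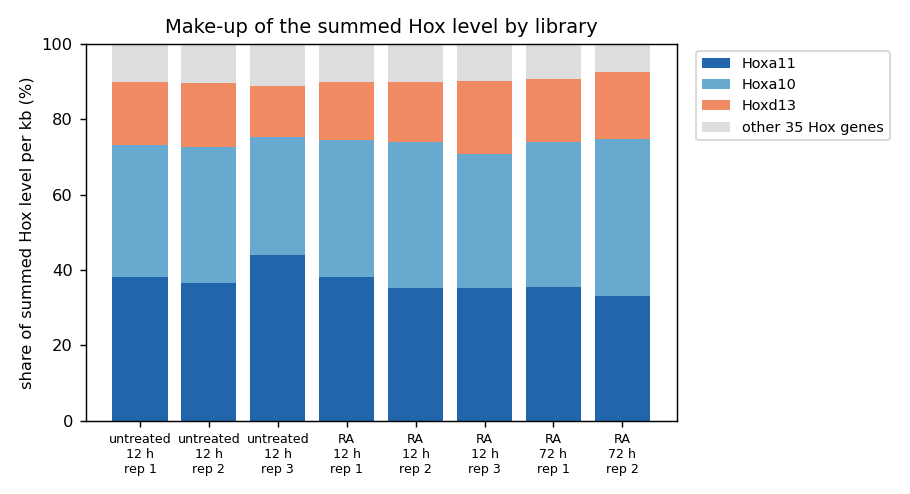
Share of the summed Hox level per kb (percent) held by Hoxa11, Hoxa10, Hoxd13 and the other 35 Hox genes, 1 bar per library. The 3 named genes make up 88.8% to 92.6% of every bar, and the Hoxa10 part is largest in RA 72 h replicate 2.

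Hoxa11 (ENSMUSG00000038210, chr6:52192107-52196213, minus strand, mm9) works with its HoxD paralogue in shaping the forearm and the kidney. Its normalised reads were 1089.25, 1134.5 and 1131.88 in the untreated libraries, 1158.38, 1042.75 and 1014 with RA for 12 h, and 1099 and 1074.13 with RA for 72 h. All 8 values lay close together and the groups overlapped. The change was -0.06 at 12 h (log2, 95% interval -0.26 to 0.14) and -0.04 at 72 h (-0.27 to 0.18), which is the narrowest interval of any Hox gene tested. Exons of the antisense gene Hoxa11as cover 38.6% of its exon length, and no value of the antisense gene was analysed here, so reads of the pair could be mixed if counting ignored strand.

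Hoxa10 (ENSMUSG00000000938, chr6:52181196-52190853, minus strand), which patterns the lumbar region, the limb and the uterus, lies next to it. It stood at 955.25, 1064.63 and 770 normalised reads in untreated cells, at 1047.13, 1099 and 975 after 12 h of RA, and at 1133 and 1281.63 after 72 h. Both 72 h libraries were above all untreated and all 12 h libraries, while untreated and 12 h overlapped. On the log2 scale Hoxa10 differed by 0.17 at 12 h (95% interval -0.09 to 0.44) and by 0.39 ± 0.14 at 72 h (SE; 95% interval 0.09 to 0.68, limma adjusted p = 0.0954). The 72 h difference, a factor of 1.31, missed the threshold after adjustment. With the side of the within-group axis in the fit it was 0.41 with an adjusted limma p of 0.00966, and without untreated replicate 2 it was 0.49 (adjusted p = 0.0348), below 2-fold in each case. It was smaller in other fits, 0.26 without untreated replicate 3 (limma adjusted p = 0.163), 0.30 with the replicate block (adjusted p = 0.208) and 0.30 without RA 72 h replicate 2 (adjusted p = 0.382). Within side 1 it was 0.35 (2 untreated libraries and 1 at 72 h) and within side 2 it was 0.56 (1 and 1). These single-library differences are a description only. The ratio of Hoxa10 to Hoxa11 per kb, taken within each library on a log2 scale, was -0.12, -0.02 and -0.49 in untreated cells, -0.08, 0.14 and 0.01 at 12 h, and 0.11 and 0.32 at 72 h. Both 72 h ratios were above all untreated ones, and no test was run on them. Which of the pair was higher depended on the length used: with the union of exons, an alternative added for this ratio after seeing the data, all 8 ratios were below 0, from -1.07, -0.70 and -0.60 in untreated cells to -0.47 and -0.26 at 72 h.

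Hoxd13 (ENSMUSG00000001819, chr2:74506367-74509656, plus strand), the most 5′ gene of HoxD, is needed for the digits and the urogenital tract. Its values were 436, 487.375 and 318.875 normalised reads in untreated cells, 431.375, 435.75 and 520.375 at 12 h, and 470.375 and 536.75 at 72 h. The groups overlapped, with untreated replicate 3 lowest of all. On the log2 scale Hoxd13 differed by 0.18 at 12 h (95% interval -0.15 to 0.50) and by 0.30 at 72 h (-0.06 to 0.66, limma adjusted p = 0.308). With the side term, under the same limit, the 72 h value was 0.36 (limma adjusted p = 0.0222), again below 2-fold. Without untreated replicate 3 it was 0.12 (limma adjusted p = 0.587). With the replicate block it was 0.26 (limma adjusted p = 0.487).

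In the deposited values the boundaries of these stretches were sharp on the map. If the libraries hold short tags beside a restriction site, a gene without a usable site would read low whatever its expression. Such sites were not checked. Hoxa9, whose annotated span ends 107 bases from that of Hoxa10, reached at most 7.5 normalised reads in any library while Hoxa10 did not fall below 770. On the other side, Hoxa13 lies 11479 bases beyond Hoxa11 and ranged from 4.875 to 21.125. In HoxD, Hoxd12 is 3329 bases from Hoxd13 and reached at most 1.875 normalised reads, where Hoxd13 did not fall below 318.875. Outside HoxD the neighbours Lnp and Mtx2 were well expressed, with means over the 8 libraries of 568 and 1341 normalised reads. Evx2, the homeobox gene beside Hoxd13, had a mean of 2.94 and Evx1 beside HoxA one of 1.83.

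**Figure D3:**
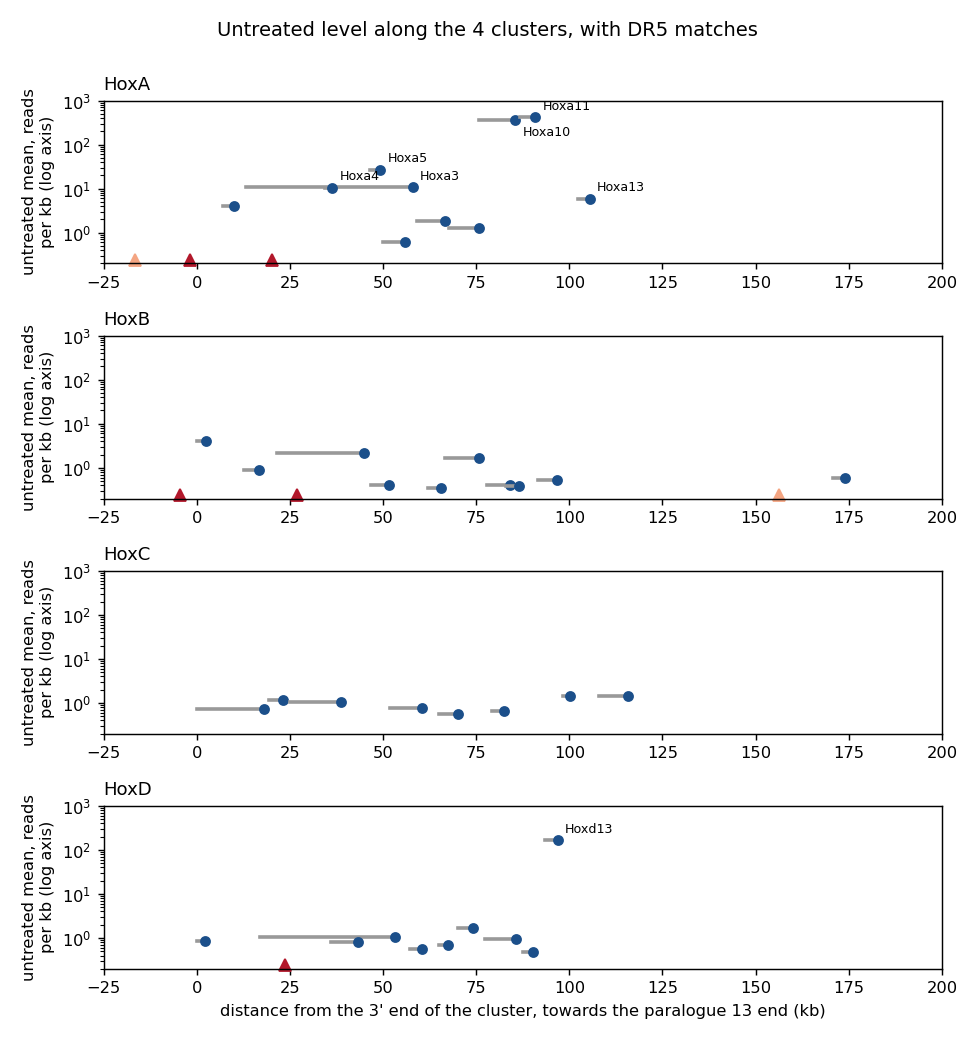
Untreated mean in normalised reads per kb (log axis) along each cluster, as distance in kb from the 3′ end of the cluster; grey bars are annotated gene spans, blue points their 5′ ends, and triangles the DR5 matches (dark red where the units are GGTTCA then also AGTTCA, light for others). The high levels sit at the 5′ ends of HoxA and HoxD, and the dark triangles in the 3′ parts of HoxA, HoxB and HoxD.

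Hoxa13 (chr6:52207693-52210874), the partner of Hoxd13 in digit formation, was much lower. It had 7.375, 21.125 and 14.25 normalised reads in untreated cells, 13.25, 9.875 and 14.25 at 12 h, and 4.875 and 8.75 at 72 h. The 72 h pair lay below all 12 h libraries but overlapped the untreated ones. Its change was -0.09 at 12 h, -0.90 at 72 h (95% interval -1.87 to 0.07, limma adjusted p = 0.247) and -0.82 from 12 h to 72 h (adjusted p = 0.367). The interval at 12 h lay within 2-fold (-0.96 to 0.78), while those of both comparisons with 72 h reached beyond it, so a fall of 2-fold at 72 h could not be told from none at this level.

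The 3′ genes of HoxA form the second expressed stretch, at low level. RA receptor dimers bind direct repeats of a 6-base unit with 5 bases between them (DR5) or 2 (DR2). To show what such letters the clusters hold, both strands of mm9 were searched for DR5 and DR2 with the repeat units AGGTCA (the textbook form), or AGTTCA, or else GGGTCA, or also GGTTCA, from 20 kb before each cluster to 20 kb after it. There were 7 DR5 matches, of which 3 were in HoxA, 3 in HoxB, 1 in HoxD and 0 in HoxC. At least 1 DR5 occurred in 38.4% of genome windows as long as the HoxA window, 50.7% for HoxB, 40.4% for HoxC and 36.7% for HoxD. Shares of windows with at least 1 match, here and below, do not give the share holding several. Over the chromosomes searched there were 3.49 DR5 per Mb, the HoxA window being 145.5 kb long and the HoxB window 213.9 kb. DR2 matches were 2 in HoxA and 1 in HoxB, with 71.0% and 81.9% of such windows holding 1 or more. A match is a description of the letters and not a measured binding site.

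In 5 of the 7 DR5 the first unit was GGTTCA and the other was AGTTCA. That pattern was picked out after the matches had been seen; it occurred 397 times in the chromosomes searched, and 2.22%, 3.23% and 2.08% of genome windows as long as those of HoxA, HoxB and HoxD held at least 1. All 5 read in the direction of transcription of their cluster and lay at its 3′ part. The 3 in introns, which resemble each other, and the one beside Hoxb1 are shown with 60 bases on each side and the repeat units in capitals.
HoxA, intron of Hoxa3 (chr6:52125472-52125608, minus strand): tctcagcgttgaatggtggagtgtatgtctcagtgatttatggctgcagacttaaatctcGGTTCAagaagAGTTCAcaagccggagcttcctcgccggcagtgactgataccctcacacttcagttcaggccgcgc
HoxB, intron of Hoxb3 (chr11:96202490-96202626, plus strand): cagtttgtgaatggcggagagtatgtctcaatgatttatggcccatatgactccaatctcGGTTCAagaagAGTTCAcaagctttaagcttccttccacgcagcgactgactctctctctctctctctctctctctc
HoxB, 4.528 kb past the end of Hoxb1 (chr11:96234030-96234166, plus strand): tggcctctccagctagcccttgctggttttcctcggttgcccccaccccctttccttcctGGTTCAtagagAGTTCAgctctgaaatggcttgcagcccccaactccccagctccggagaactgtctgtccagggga
HoxD, intron of Hoxd3 (chr2:74579537-74579673, plus strand): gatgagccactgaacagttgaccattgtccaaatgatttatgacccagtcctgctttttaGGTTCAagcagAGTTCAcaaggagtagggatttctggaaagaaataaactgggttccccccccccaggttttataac

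The elements in the introns of Hoxa3 and Hoxb3 shared all 17 bases and an unbroken run of 28, and that in Hoxd3 matched them at 16 of 17 positions. These 3 windows also shared the 9 bases tgatttatg, which end 18, 20 and 18 bases before the DR5 in Hoxa3, Hoxb3 and Hoxd3. It was found by comparing these windows, and 0.161% of genome windows of 137 bases hold it on either strand. Promoters given by RefSeq, each 250 bases before to 50 after a start, were on a later assembly than mm9. Of them, 0.0974% held a DR5 (32 of 32851). Of the 24 Hox promoters, which cover 22 Hox genes, 0 did. At so low a share that count is no result about the Hox promoters.

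Rarb, the gene of a retinoic acid receptor and a classical RA target, served as the reference in the same libraries. It had 46.625, 31.125 and 58.375 normalised reads in untreated cells, 123.5, 174.875 and 159.25 at 12 h, and 241.625 and 205.125 at 72 h, without overlap between untreated and RA libraries. It rose by 1.76 ± 0.22 at 12 h and by 2.31 ± 0.24 at 72 h on the log2 scale (SE; limma adjusted p = 0.00021 and 3.4e-05). Among 19 reference genes of the retinoid response 12 were tested, 5 of them were called higher at 12 h and 4 at 72 h, and none was called lower. Cyp26b1, which degrades RA, rose by 5.99 and 6.51, Dhrs3, a retinaldehyde reductase, by 3.46 ± 0.16 and 4.603 ± 0.184, and Tgm2, a transglutaminase, by 3.33 and 4.03, at 12 h and 72 h. Crabp2, an RA binding protein, rose by 1.53 at 12 h (adjusted p = 5.9e-07), and its 72 h value of 0.65 was below 2-fold.

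Hoxa2, Hoxa3 and Hoxa4 act in the pharyngeal arches and the neck. Hoxa2 ranged from 5.625 to 17 normalised reads over the 8 libraries, Hoxa3 from 26.375 to 46.125 and Hoxa4 from 14.375 to 19.875, with overlapping groups in all comparisons. The log2 difference of Hoxa3 was 0.12 at 12 h (95% interval -0.40 to 0.64) and -0.06 at 72 h (-0.64 to 0.52), and that of Hoxa4 was 0.09 and -0.13 (intervals -0.49 to 0.67 and -0.77 to 0.52). The intervals of Hoxa2 were wider, -0.65 to 1.18 at 12 h and -0.76 to 1.28 at 72 h, and reached beyond 2-fold. Hoxa3 shares 33.0% of its exon length with a second annotated gene on the same strand. That gene had a mean of 1.20 normalised reads over the 8 libraries, near the floor. Whether the counting divided reads between them was not tested.

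Hoxa5 (ENSMUSG00000038253, chr6:52151753-52154586, minus strand), required for the lung and the lower neck, was the highest 3′ gene per kb. It had 56.25, 45.125 and 50.875 normalised reads in untreated cells, 58.125, 66.75 and 56.75 at 12 h, and 68.625 and 39.625 at 72 h. All 12 h libraries were just above all untreated ones, and the 72 h libraries were the highest and the lowest of the 8. The log2 change was 0.25 at 12 h (95% interval -0.21 to 0.72, limma adjusted p = 0.5996) and 0.05 at 72 h (-0.47 to 0.56). At 72 h it was -0.34 without replicate 1 and 0.43 without replicate 2 of that group.

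Read over the 9 tested genes, limma called 0 in each of the 3 comparisons at an adjusted p below 0.05 and a change of at least 2-fold. Of all 12673 genes tested, 1.42% were called at 12 h, 3.67% at 72 h and 1.5% from 12 h to 72 h. A count of 0 among 9 genes is close to these backgrounds and is no result about the Hox genes, for which the intervals are the measurement. Without the fold minimum the counts were also 0, against 4.37%, 11.5% and 5.84% of all genes. At an unadjusted p below 0.05 there was 1 Hox gene at 12 h (16.3% of all genes), 1 at 72 h (Hoxa10; 23.9%) and 0 from 12 h to 72 h (18.9%). Groups did not overlap in 1 of 9 at 12 h (Hoxa5; 20% of all genes), 1 at 72 h (Hoxa10; 36.6%) and 2 from 12 h to 72 h (Hoxa10, higher, and Hoxa13, lower; 37.3%). The 95% interval lay within 2-fold for 7, 6 and 7 of the 9 genes, where 85.5%, 76.6% and 82.1% of all genes did so. The median log2 change of the 9 was 0.12 at 12 h, -0.04 at 72 h and -0.00 from 12 h to 72 h, beside -0.02, -0.02 and -0.00 over all genes, with a median SE of 0.24 to 0.27 for the Hox genes and 0.15 to 0.17 for all.

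**Figure D4:**
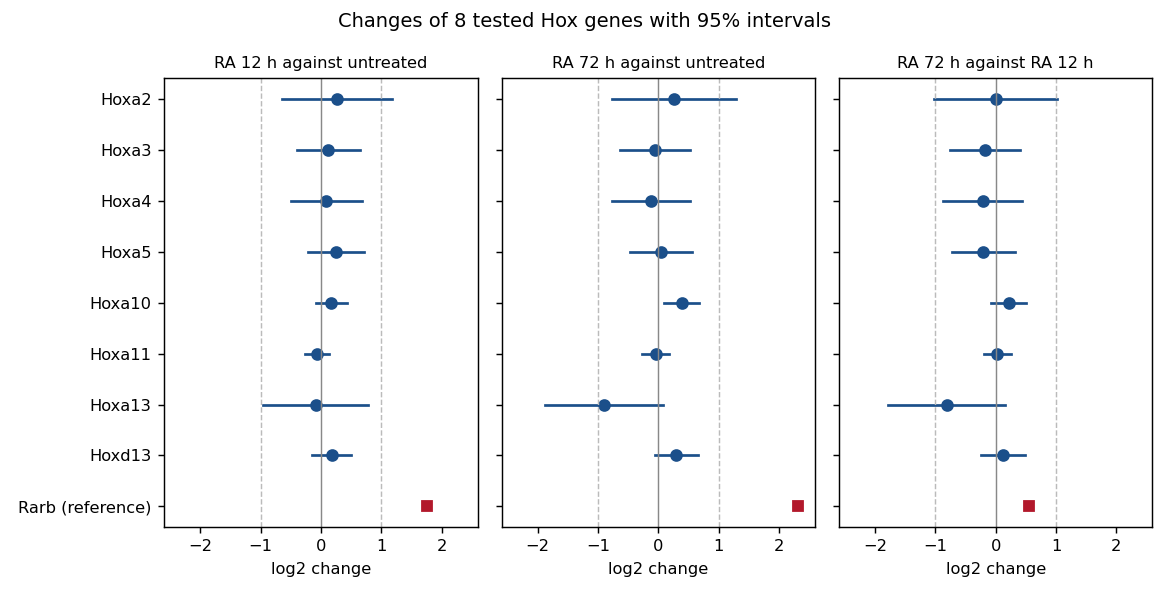
Log2 change of 8 of the 9 tested Hox genes in the 3 comparisons, points with 95% limma intervals, and Rarb as a reference (square, no interval drawn); dashed lines mark 2-fold. Every Hox point drawn lies within the dashed lines, while Rarb lies beyond them in both comparisons with untreated cells.

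The other 29 members did not reach the level for testing, and their values near the floor carry little information on change. HoxB, whose 3′ genes are activated by RA in the embryo, had no value above 11.875 normalised reads. Its highest member, Hoxb1, which marks one hindbrain segment, had 9.25, 4.875 and 11.875 normalised reads in untreated cells, 3.375, 5.625 and 3.875 with RA for 12 h, and 3.375 and 5.875 with RA for 72 h. All 5 RA libraries were below 2 of the 3 untreated ones, and the groups overlapped. The remaining HoxB genes ranged up to 8, all HoxC genes up to 6.5 (Hoxc13) and the HoxD genes other than Hoxd13 up to 8.75 (Hoxd3). HoxC was at the floor in 40.6% of its values and HoxB in 40%. Exons of Hoxb7 and Hoxb8 overlap by 1069 bases and those of Hoxd3 and Hoxd4 by 1725, so low values of these pairs are uncertain. In a fit without the filter on low values, 1, 1 and 3 of the 29 had an unadjusted limma p below 0.05 in the 3 comparisons. The share of all genes doing so in that fit is not given here, so these counts are no result about the 29. In the same fit 0 had an adjusted p below 0.05, the lowest adjusted values being 0.371, 0.237 and 0.307.

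Hox proteins bind DNA with cofactors of the TALE class, mainly the Pbx and Meis families. All 12 genes of a cofactor list were tested, and 0 were called in any comparison, against 1.42%, 3.67% and 1.5% of all genes. A count of 0 among 12 is close to these shares and is no result about the cofactors. Per kb the highest in untreated cells were Tgif1 at 398 reads, a repressor of the TALE class, Pbx4 at 113 and Meis3 at 112. Pbx4 had 0.64 at 72 h on the log2 scale (limma adjusted p = 0.012), below 2-fold. Pbx2 and Pbx3 differed by at most 0.14 in either comparison with untreated cells.

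Of 38 symbols listed as regulators of Hox clusters (mainly Polycomb and Trithorax group members and Cdx factors), 35 were in the table and 31 tested. Of all genes, 1.42% were called at 12 h and 3.67% at 72 h. Of these 31, none was called at 12 h and 1 was called higher at 72 h. This was Phf19, a Polycomb-like subunit associated with PRC2, with 72.6, 65.25 and 48 normalised reads in untreated cells, 54.75, 53.9 and 63.4 at 12 h, and 109.75 and 179 at 72 h. The 72 h libraries were above all others but differed widely between themselves, and the log2 change was 1.19 ± 0.24 (SE; limma adjusted p = 0.0052). Cdx1, Cdx2 and Cdx4, which activate central and posterior Hox genes in the embryo, had untreated means of 2.25, 2.71 and 1.58 normalised reads and were not tested.

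Genes that flank or lie inside the clusters gave 0 calls in the 3 comparisons among 13 tested of 26. In the 3 comparisons 1.42%, 3.67% and 1.5% of all genes were called, so that 0 is no result about the flanking genes. Among 45 other regional transcription factors 29 were tested, with 0 called at 12 h, 1 higher and 1 lower at 72 h, and 1 higher from 12 h to 72 h. Twist2, a mesenchymal regulator, rose by 1.46 at 72 h (adjusted p = 1.7e-05), and Lhx9, a limb and gonad factor, fell by 1.007 (adjusted p = 0.0236). Tbx4, which marks the hindlimb bud, was 1.12 higher at 72 h than at 12 h (limma adjusted p = 0.0265). Pitx1, the other hindlimb gene, had an untreated mean of 670 normalised reads and Tbx5, a forelimb gene, one of 75.7, and neither was called in any comparison (both were chosen after their values were seen). Among the marker lists, the fibroblast gene Pdgfra rose by 1.49 at 12 h, Col3a1 and Postn fell by 1.43 and 1.47 at 72 h, and the neural gene Stmn2 fell by 1.38 at 12 h and 3.12 at 72 h (limma adjusted p at most 0.0145).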

How the data were processed

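Per the labels, polyadenylated RNA of 8 libraries was profiled as short tags, while the study's methods describe fragmented RNA. The submitters' processing notes name mm9, and those methods name Tophat for alignment to it and Cufflinks with Ensembl models for counting. The authors deposited normalised reads per gene, used here as scores because they are not counts. The 8 columns held the same sorted values in steps of 0.125, summing to 9442018.6, which is the pattern of quantile normalisation. The study's methods name the DESeq package for normalisation and do not name quantile normalisation. Columns of the authors' log2 ratios were not used.

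The 12673 genes whose mean reached 10 were fitted, as log2(value + 1), in 1 linear model of the 3 groups with limma 3.58.1 (R 4.3.3, variance trend), and two-sided p-values were adjusted by Benjamini-Hochberg over all of them. A gene was called at an adjusted p below 0.05 and at least 2-fold. Fold changes are on the log2(value + 1) scale and understate changes of low genes. The script was tested on simulated data. The members, gene lists and rules were chosen with earlier results of these data known. All members are described by level; any member called, or with an adjusted p below 0.05, was to be given in full, and none was; the 5 highest per kb, called genes of the other lists and the 3 highest cofactors were named, and any other gene, the remaining tested Hox genes included, was named after its values were seen. Values of some genes these rules would name, and of the regions beside them, are not reported here. Gene spans come from the mm9 annotation (96.7% of identifiers found). Alternatives were another pseudocount, other filters, no fold minimum, unadjusted p-values, no variance trend, a replicate block, the side of the within-group axis, fits of 2 groups, leaving out each library, and other lengths.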

Additional observations from a re-analysis of the deposited data

Results flagged for a closer look

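The following list genes differed between the RA time points, that is, the test of 72 h against 12 h passed (limma, adjusted over all genes tested; log2 change ± SE, 2 libraries against 3). No Hox gene was among them. Phf19 was 1.28 ± 0.24 higher at 72 h (adjusted p = 0.00644), Tbx4 1.12 ± 0.27 higher (adjusted p = 0.0265) and Dhrs3 1.14 ± 0.18 higher (adjusted p = 0.00249). The change was -1.15 ± 0.13 for Col3a1 (adjusted p = 0.000157), -1.13 ± 0.13 for Postn (adjusted p = 0.000223) and -1.74 ± 0.33 for Stmn2 (adjusted p = 0.00674).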

How the results depend on the processing

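Under the alternatives run, 0 Hox genes were called in each of the 3 comparisons, including the fit with the replicate block, the fit without a filter and each fit that left out 1 library. The labels number the replicates alike in all groups, but deviations of equally numbered libraries correlated between -0.474 and 0.420, so the numbers were not taken to pair the samples, and the replicate block gave 0 called Hox genes. Of 396 recomputed changes of the 9 tested genes, 4 moved by more than the spread, all of them Hoxa5 without 1 of the 72 h libraries. With no Hox gene called in any fit, there was no call to reverse. Among the 396, 17 uncalled values changed sign. Without a fold minimum, the side term brought Hoxa10 and Hoxd13 below an adjusted p of 0.05 at 72 h. The side was derived from these same values, so p-values with it may be too small. Leaving out untreated replicate 2 also brought Hoxa10 below 0.05, and the causes were not tested. With the union of exons as length, the untreated share was 79.5% for HoxA and 18.6% for HoxD. Where RA 72 h was left with 1 library, that library was assumed to vary like the other groups. The counts of called list genes, 7, 10 and 6, were unchanged with unadjusted p-values. Depth is unknown, so the precision of members near the floor cannot be stated.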
